A study of Mus musculus with 10 samples.

Results

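Butyrylcholinesterase and 8 carboxylesterases were followed in crypt epithelium after loss of the transcription factor ARID3A. The set comprised Bche, 4 genes of the Ces1 family (Ces1d, Ces1e, Ces1f and Ces1g) and 4 genes of the Ces2 family (Ces2a, Ces2b, Ces2c and Ces2e), that is 9 of the 54838 genes listed and 8 of the 20 carboxylesterases listed. The genes were chosen by name, because Bche was among the sharpest rises between the same libraries that are described here. The difference between genotypes is therefore given for them as a description, with no test.

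Crypts were taken from 10 animals, 5 WT and 5 Arid3a cKO (Villin Cre-ERT2+/-, Arid3a fl/fl), with 1 polyA RNA library per animal. Animals of both genotypes received tamoxifen on 3 consecutive days and were culled 1 month after the first dose. The Villin promoter drives the recombinase in intestinal epithelium, so immune and stromal cells in a crypt preparation keep the gene. Age, strain and the Cre status of the WT animals are not given in the sources used here. The animal identifiers of the 2 genotypes shared 0 number series. What a series stands for is not stated, and whatever it reflects cannot be told apart from genotype.

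Carboxylesterases and cholinesterases are serine hydrolases of the same fold. A serine in the active site attacks an ester bond, forms a short-lived acyl enzyme and is freed by water. Carboxylesterases sit in the lumen of the endoplasmic reticulum, where they cleave drugs, retinyl esters and acylglycerols, and the intestine and liver are known for their high content of the CES2 and CES1 families, respectively. Butyrylcholinesterase is secreted, cleaves butyrylcholine and other choline esters, and removes the octanoyl group that makes ghrelin active.

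The coding sequence around the active-site serine shows how the 9 genes relate, and it is printed here from the GENCODE transcripts of GRCm38, 27 bases per gene, with the serine codon in capitals.
Bche: atttttggagaaAGTgcaggggcagct
Ces1d: atctttggagagTCAgcaggaggtttc
Ces1e: atctttggagagTCAgcaggaggtgaa
Ces1f: atctttggagagTCAgcaggaggttac
Ces1g: atcttcggcgagTCAgcaggaggtgaa
Ces2a: atatttggagtcTCAgcaggaggtaca
Ces2b: atttttggcgagTCTgcaggtggcaca
Ces2c: atttttggcgagTCTgcaggtggcaca
Ces2e: atttttggagagTCAgcaggtggcaca
Bche uses a serine codon of the AGT kind, whereas all 8 carboxylesterases use a codon that starts with TC. Ces2b and Ces2c were identical over these 27 bases, and Bche differed from the carboxylesterases at 9 to 12 of them. Over the whole coding sequence, identity was 82.2% to 91.3% among the Ces2 genes, 74.1% to 81.6% among the Ces1 genes, 53.1% to 56.1% between a Ces1 and a Ces2 gene, and 45.3% to 48.3% between Bche and a carboxylesterase.

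The end of the coding sequence separates the secreted enzyme from the retained ones, and the last 24 bases before the stop codon are shown for Bche and for the most abundant gene of each carboxylesterase family, with the last 4 codons in capitals.
Bche: aagaaagagagcTGTACAGCTCTC
Ces1f: ccccagccatacCACAATGAGCTG
Ces2e: tctcaggagaggCACAAAGAGTTG
The last 4 codons encoded the endoplasmic reticulum retention signal of carboxylesterases, histidine, any residue, glutamate and leucine, in 8 of 8 carboxylesterases and not in Bche. Bche (ENSMUSG00000027792) lies on the minus strand at chr3:73635808-73708415 and is the only member outside chromosome 8. The Ces1 members lie on the minus strand in the order Ces1d (chr8:93166068-93197838), Ces1e (chr8:93201218-93229619), Ces1f (chr8:93256236-93279747) and Ces1g (chr8:93302369-93337308). The Ces2 members lie on the plus strand in the order Ces2a (chr8:104734003-104741634), Ces2b (chr8:104831572-104840093), Ces2c (chr8:104847068-104854483) and Ces2e (chr8:104926260-104934672). All of these positions are GRCm38.

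Because close relatives can trade reads, the share of each gene's distinct 100-base transcript stretches that recur in another gene was counted. It was 0% for Bche, the 4 Ces1 members and Ces2e. For Ces2c it was 13.6%, nearly all of it with the pseudogene Ces2d-ps, which held at most 7 expected counts in any library. For Ces2a it was 8.13%, shared with Gm7208, and for Ces2b 0.0881%. By exact matches of this length, most transcript sequence of each member belongs to 1 gene. Shorter or inexact matches were not counted.

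The libraries held 27050455 to 31053622 expected counts, so 1 CPM stands for 27.1 to 31.1 counts. CPM here is the expected count scaled to a common library size with TMM factors. Arid3a itself was at 1.92, 2.07, 2.75, 2.68 and 2.69 CPM in the WT libraries and at 0.303, 0.516, 0.49, 0.884 and 1.17 CPM in the cKO libraries, lower in every cKO library than in any WT library. In the edgeR quasi-likelihood test, 4167 of 14719 genes tested (28.3%) differed between genotypes at an adjusted p under 0.05, 2298 higher and 1869 lower in the cKO. Over all these genes the log2 fold change had a median of -0.03, and of -0.16 without the TMM factors, and each of the 9 members was higher in the cKO on either scale.

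Bche was the gene for which the set was chosen. In the WT libraries it was at 122, 93.7, 105.5, 87.1 and 77.3 CPM, and in the cKO libraries at 202, 223, 217, 234 and 257.5 CPM. The groups did not overlap, and the lowest cKO library was 1.66 times the highest WT library. The means were 97.1 ± 17.2 in WT and 226.5 ± 20.8 in the cKO (SD, n = 5 each), and the fitted log2 fold change was 1.22 (SE 0.114). With the 14719 genes ordered from the highest to the lowest log2 fold change, Bche was 391st. Ordered from the smallest edgeR p-value, it was 8th, a rank that also depends on the spread within genotype.

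In deposited TPM, which is per length and carries no TMM factors, the difference in Bche was smaller. The deposited TPM was 31.4, 19.4, 27.3, 25.9 and 15.8 in WT and 43.6, 44.1, 42.9, 51.2 and 51.3 in the cKO, a ratio of means of 1.95 in place of 2.33 for CPM. RSEM's effective length of Bche, which depends on the mix of isoforms it assigns, was 5183, 6031, 5068, 4659 and 5780 bases in WT and 5649, 5869, 6015, 5869 and 5903 bases in the cKO. The lengths overlapped between genotypes, and the 3 shortest were WT libraries. With effective length as an offset, the log2 fold change of Bche was 1.08. With library size only and no length term it was 1.09, against 1.22 in the main fit. The smaller TPM ratio is therefore not due to length alone.

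**Figure D1:**
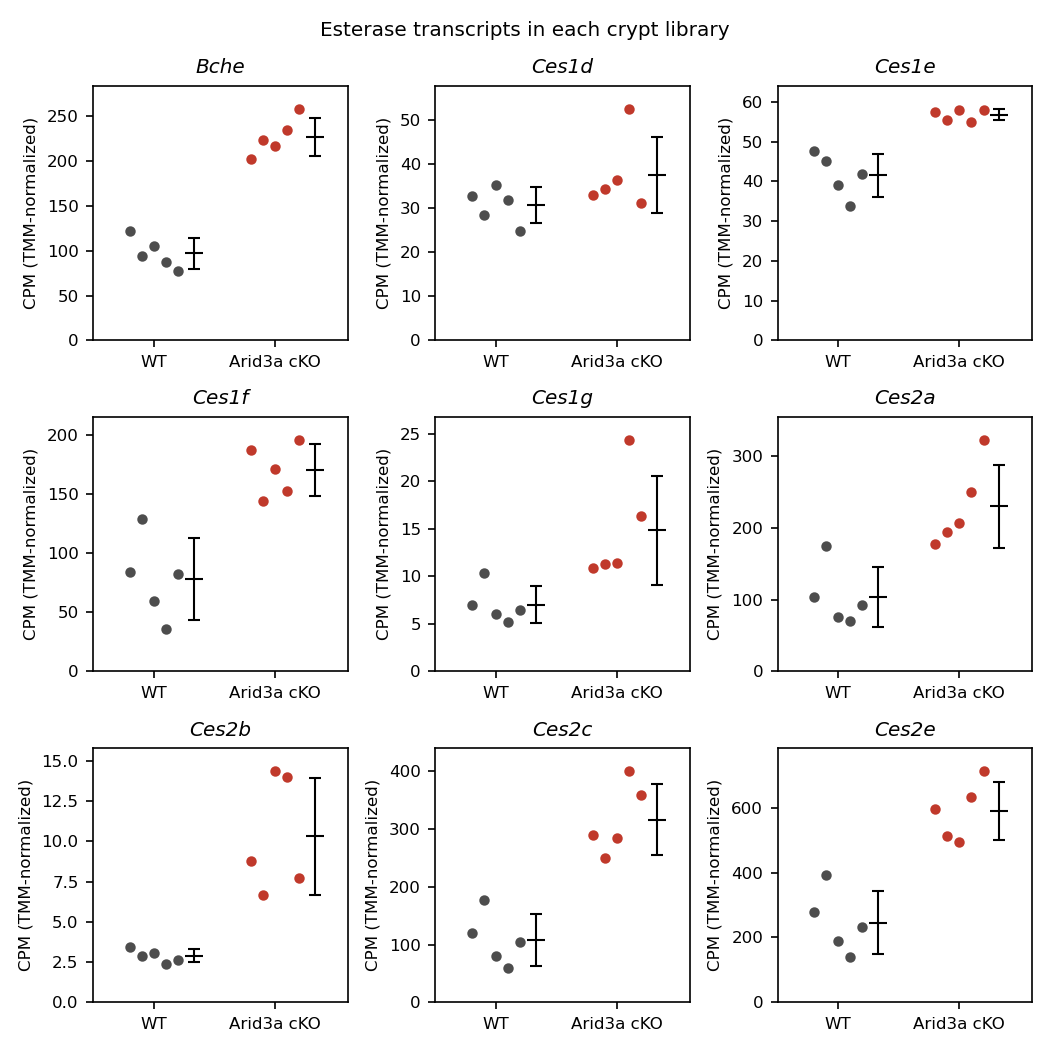
CPM (TMM-normalized) of each of the 9 genes in every library, WT in grey and Arid3a cKO in red, with the mean and SD of 5 libraries as bars and each axis starting at 0. Bche runs from 77.3 to 122 in WT and from 202 to 257.5 in the cKO, and the groups overlap in Ces1d alone.

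Of the Ces2 family, Ces2e, a major acylglycerol and drug esterase of the small intestine, was the most abundant. It was at 277.5, 394, 188, 140.4 and 231 CPM in WT and at 596, 513, 493, 633 and 712 CPM in the cKO. All cKO libraries were above all WT libraries, with a log2 fold change of 1.26 (SE 0.246). Ces2c, which hydrolyses acylglycerols in intestine and liver, was at 120, 177, 80.2, 58.9 and 104 CPM in WT and at 289, 249, 283, 399 and 358 CPM in the cKO. The groups did not overlap, and the log2 fold change was 1.55 (SE 0.274).

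Ces2a, a diacylglycerol hydrolase, was at 104, 174, 76.2, 70.03 and 92.3 CPM in WT and at 178, 194, 206, 250.2 and 322 CPM in the cKO. The lowest cKO library was only 1.02 times the highest WT library, and the log2 fold change was 1.15 (SE 0.265). Ces2b was the rarest member, at 3.45, 2.88, 3.09, 2.41 and 2.66 CPM in WT and 8.76, 6.66, 14.4, 14.02 and 7.76 CPM in the cKO. Its groups did not overlap, and at 1.83 (SE 0.223) it had the largest log2 fold change of the 9. That value fell to 1.08 on log2(TPM + 1), a scale that compresses low levels.

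Of the Ces1 family, Ces1f, a lipid ester hydrolase best known from the liver, was the most abundant. It was at 83.8, 129, 59.3, 36.3 and 82.7 CPM in WT and at 188, 144.5, 172, 152.5 and 196 CPM in the cKO. The groups did not overlap, although the WT libraries spread with a coefficient of variation of 44.1% against 12.9% in the cKO, and the log2 fold change was 1.12 (SE 0.285). Ces1e, the esterase that holds β-glucuronidase in the endoplasmic reticulum, was at 47.7, 45.05, 39, 33.9 and 41.9 CPM in WT and at 57.4, 55.5, 58.05, 55.02 and 57.9 CPM in the cKO. All cKO libraries lay within a coefficient of variation of 2.51% and above all WT libraries, with a log2 fold change of 0.45 (SE 0.0855).

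Ces1g, a lipid hydrolase of liver and intestine, was at 7, 10.3, 6.01, 5.23 and 6.48 CPM in WT and at 10.8, 11.2, 11.4, 24.3 and 16.3 CPM in the cKO. The lowest cKO library was 1.05 times the highest WT library, and cKO replicate 4 was the highest. The log2 fold change was 1.08 (SE 0.256), and 0.83 without that library. Ces1d, the triacylglycerol hydrolase of liver and fat, was at 32.8, 28.5, 35.3, 31.9 and 24.9 CPM in WT and at 32.9, 34.3, 36.3, 52.4 and 31.2 CPM in the cKO. Its groups overlapped, with 2 of 5 cKO libraries above the highest WT library. The log2 fold change of 0.29 (SE 0.142) was 0.14 without cKO replicate 4.

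Counted together, 9 of 9 members passed the filter on low counts, 8 were past the threshold and higher in the cKO, against 15.6% of all genes tested, and the groups did not overlap for the same 8, against 12.0%. Ces1d was the exception in both counts. Without the filter on low counts 7 were past the threshold, with Ces1f lost. The log2 fold change was above 1 for 7 of the 9, against 572 of all genes tested (3.89%), and the median over the members was 1.15. Since the genes were selected on this contrast, nothing is read from these counts. The sum of the Ces2 members was 460 ± 183 CPM in WT and 1145 ± 193 CPM in the cKO, a ratio of 2.49, and the sum of the Ces1 members was 157 ± 39.1 and 279 ± 20.9 CPM, a ratio of 1.77 (SD, n = 5 each). The sums do not depend on how reads were divided among the members summed, but they leave out relatives such as Ces2d-ps and Gm7208 that share stretches with Ces2c and Ces2a.

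**Figure D2:**
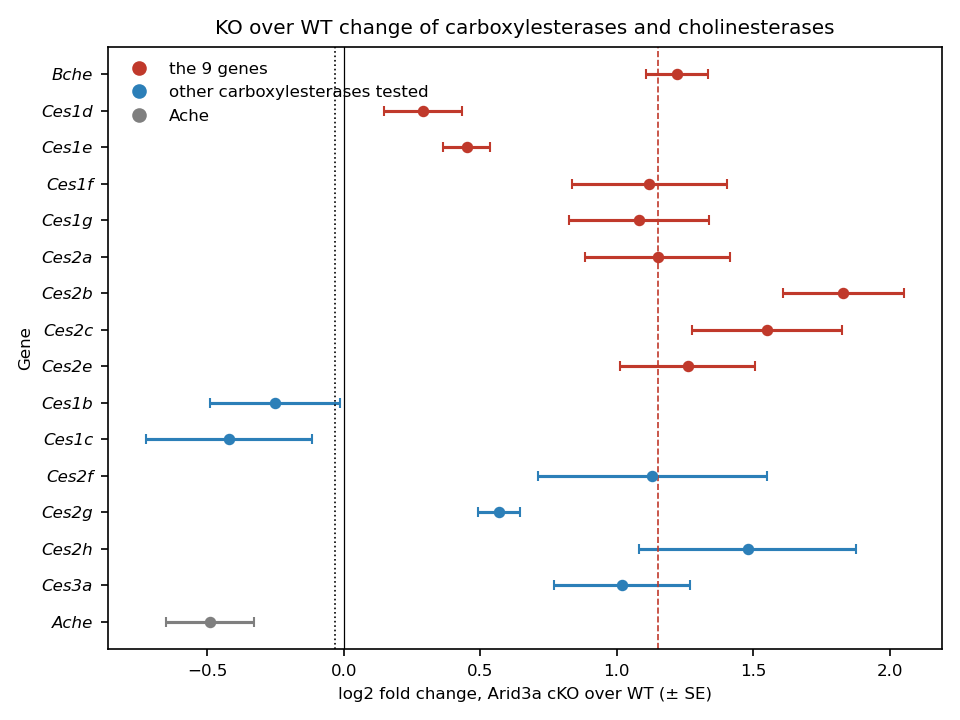
log2 fold change of Arid3a cKO over WT with its SE for the 9 genes (red), the 6 other carboxylesterases tested (blue) and Ache (grey). The dotted line marks the median of all genes tested (-0.03), the dashed line that of the 9 genes (1.15); Ces1d and Ces1e are the members farthest to the left, at 0.29 and 0.45.

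Levels between genes were set side by side in TPM, which is per length. The order of mean TPM in WT was Ces2e at 161.5, Ces2c at 73.7, Ces2a at 73.6, Ces1f at 57.6, Ces1e at 30.05, Bche at 23.9, Ces1d at 21, Ces1g at 3.93 and Ces2b at 1.26. The WT ranges of neighbours in this order overlapped, except for Ces1d with Ces1g and Ces1g with Ces2b. Such ranges leave out that both genes were measured in the same libraries. Within single WT libraries the order was more regular, with the upper neighbour higher in 5 of 5 libraries for every pair but Ces2c with Ces2a, where it was higher in 3 of 5. Ces2e ranked 737th of the 14719 genes in WT and 361st in the cKO, while Bche went from rank 4601 to rank 2533.

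In the cKO the order was the same except that Bche, at 46.6 TPM, stood above Ces1e, at 38 TPM, in 5 of 5 libraries and with ranges that did not overlap. Ces2e made up 52% ± 1.4 of the Ces2 members' TPM in WT and 50.5% ± 2.79 in the cKO (SD, n = 5 each), with overlapping ranges. Ces2c was 21.8% to 24.5% of the same sum in WT and 26.1% to 31.4% in the cKO, ranges that did not overlap. Within the Ces1 family, Ces1f made up 49.5% ± 10.3 in WT and 62.5% ± 4.66 in the cKO, with overlapping ranges.

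**Figure D3:**
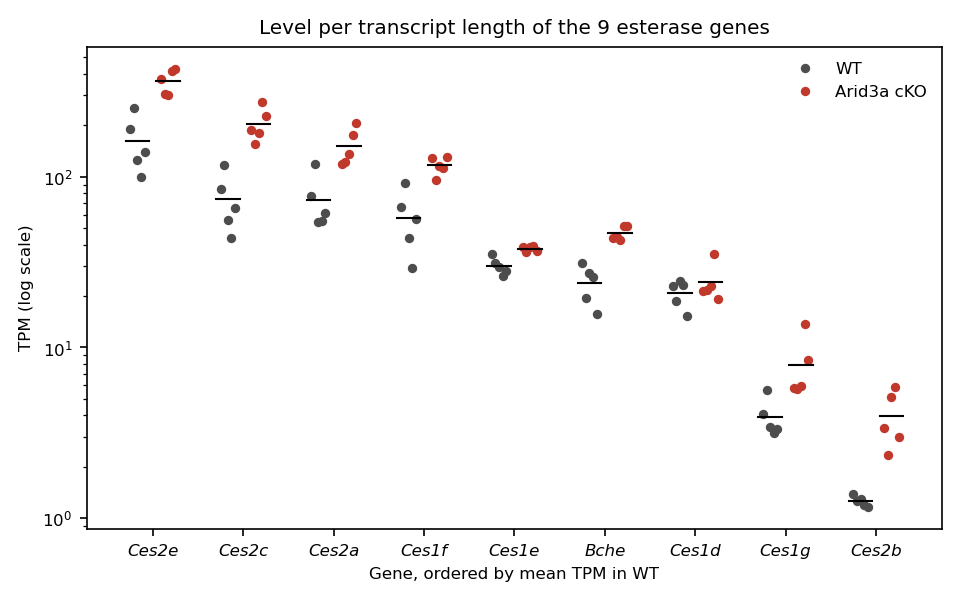
Deposited TPM on a log axis for the 9 genes in WT (grey) and Arid3a cKO (red) libraries, ordered by mean TPM in WT, with a line at each mean. Ces2e is highest at a mean of 161.5 in WT and Ces2b lowest at 1.26, and Bche passes Ces1e in the cKO.

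Markers of enterocytes, the absorptive cells that carry most intestinal carboxylesterase, moved with genotype in these libraries. The 12 markers (Alpi, Apoa1, Apoa4, Fabp1, Fabp2, Sis, Lct, Anpep, Krt20, Slc5a1, Ada and Treh) all rose in the cKO at an edgeR adjusted p under 0.05, with a median log2 fold change of 1.68. Their summed level was 5751, 8850, 3024, 1837 and 4384 CPM in WT and 14860, 13860, 10200, 18230 and 19130 CPM in the cKO, and the groups did not overlap. The ratio of the group means was 3.2, beside 2.33 for Bche, 1.77 for the summed Ces1 members and 2.49 for the summed Ces2 members. In bulk RNA, more cells of a type and more RNA per cell cannot be told apart.

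Of the other cell types, 5 of 6 Paneth markers and 4 of 6 stem cell markers fell in the edgeR test, and 0 of 6 goblet markers passed the test. Enteroendocrine markers rose for 3 of 6 (Chga, Chgb and Tph1), and their sum ranged from 412.5 to 499.7 CPM in WT and from 540.3 to 777.4 CPM in the cKO. Tuft cell markers rose for 3 of 5 tested (Dclk1, Trpm5 and Sh2d6), with sums of 87.03 to 96.24 CPM in WT and 103.1 to 112.9 CPM in the cKO. The summed Paneth markers ranged from 13550 to 21430 CPM in WT and from 9096 to 12460 CPM in the cKO. B and plasma cell markers summed to 108 to 183 CPM in WT and 25.6 to 69 CPM in the cKO, with Jchain and Igha lower. For the other organs that are rich in these esterases, the adipocyte markers Adipoq, Lep and Cfd and the hepatocyte markers Fgb and Ahsg had at most 3 counts in every library, 0 of the 3 hepatocyte markers tested were called, and Cidec of the adipocyte list was higher in the cKO. The part of cell composition in the differences of the members was not tested.

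Variation among animals of the same genotype does not set the difference between means, so it was used to ask which members move together. It is not free of the choice of Bche, since a rise can also be sharp through a small spread within genotype. For each library the deviation of log2(CPM + 0.5) from the mean of its genotype was taken, and Pearson correlations over the 10 libraries were tested by exact permutation within genotype (all reorderings, two-sided), with Benjamini-Hochberg adjustment over 45 correlations, 36 between members and 9 with the enterocyte marker sum. Of the 36 pairs of members, 8 passed at an adjusted p under 0.05 and 32 had a positive r, with a median r of 0.38. By Spearman correlation 7 pairs passed. How often pairs of other genes pass was not counted.

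The pairs that passed by Pearson joined Ces2a, Ces2c, Ces2e, Ces1f and Ces1g. Ces2c with Ces2e had r = 0.96 and rho = 0.93 (exact permutation, adjusted p = 0.013 and 0.0193, n = 10). Ces2a gave r = 0.9 with each of Ces2c and Ces2e (exact permutation, adjusted p = 0.013 for both). Members of different families also varied together. Ces1f with Ces2e had r = 0.93 (exact permutation, adjusted p = 0.033), and Ces1g with Ces2c had r = 0.82 (exact permutation, adjusted p = 0.00781).

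Within the Ces1 family 0 pairs passed by Pearson, including Ces1e with Ces1f at r = 0.88 (exact permutation, adjusted p = 0.0933). By Spearman that pair passed, with rho = 0.9 (exact permutation, adjusted p = 0.0361), and its r was 0.97 without the 2 libraries farthest from the median of Ces1e. Ces1d with Ces1f had r = -0.37. After the 2 libraries farthest from the median of the first gene were left out, r was 0.87 for Ces2c with Ces2e, 0.7 for Ces1f with Ces2e, 0.53 for Ces1f with Ces2c (0.89 with all 10 libraries) and 0.8 for Ces1g with Ces2c. With 8 libraries 0 pairs passed after adjustment, 7 had an unadjusted p under 0.05, and the lowest adjusted p was 0.0781. Leaving out 1 library at a time, 5 pairs passed without WT replicate 1, 1 pair without each of WT replicates 2, 3, 4 and 5, and 4 pairs without cKO replicate 2. Ces1g with Ces2c was the pair that passed in every such case.

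**Figure D4:**
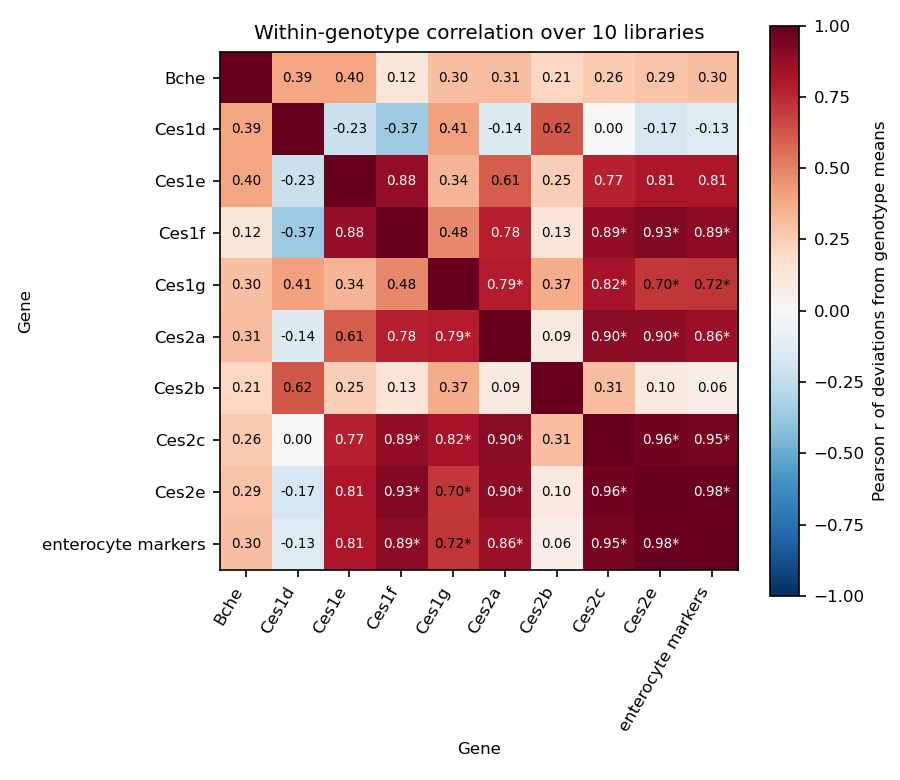
Pearson r between the deviations from genotype means of the 9 genes and of the enterocyte marker sum over 10 libraries, red for positive and blue for negative, with an asterisk where the adjusted exact permutation p is under 0.05. Ces1f, Ces1g, Ces2a, Ces2c and Ces2e carry all the asterisks, and no pair with Bche, Ces1d, Ces1e or Ces2b has one.

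The same genes followed the enterocyte markers from animal to animal. How many other genes do so was not counted, so this is not shown to be particular to them. Among 9209 genes searched, the 5 outside the set most like Ces2e each had r = 0.99 with it within genotype. Within genotype, r with the marker sum was 0.98 for Ces2e, with rho = 0.96 (exact permutation, adjusted p = 0.00781 and 0.0172, n = 10). It was 0.95 for Ces2c, 0.89 for Ces1f, 0.86 for Ces2a and 0.72 for Ces1g, with exact permutation adjusted p = 0.013, 0.0399, 0.033 and 0.033. For Ces2e the correlation passed with any 1 library left out, with r from 0.97 to 0.99, and r was 0.95 without the 2 farthest libraries. For Ces1f, r with the markers dropped from 0.89 to 0.53 without its 2 farthest libraries, and for Ces2c, Ces2a and Ces1g it was 0.83, 0.79 and 0.75. Leaving out any of WT replicates 2, 3, 4 and 5 left Ces2e as the only member that passed.

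Bche, the member with the smallest SE relative to its change, had r = 0.3 with the enterocyte markers and rho = 0.41 (exact permutation, adjusted p = 0.718 and 0.522, n = 10). Its r with the other 8 members ran from 0.12 (Ces1f) to 0.4 (Ces1e), and 0 of the 8 pairs passed. In WT replicate 2, which had the highest enterocyte marker sum of its group at 8850 CPM, Bche was at 93.7 CPM, between the extremes of its group, while Ces1f, Ces1g, Ces2a, Ces2c and Ces2e each had their highest WT value there. In WT replicate 4, which had the lowest sum at 1837 CPM, those 5 genes each had their lowest WT value, and Bche at 87.1 CPM did not. Bche was highest among WT in replicate 1, at 122 CPM, where the sum was 5751 CPM. In the cKO, Bche was highest in replicates 5 and 4, at 257.5 and 234 CPM. The same libraries had the highest sums of their group, at 19130 and 18230 CPM. Bche was lowest in cKO replicate 1, at 202 CPM, where the sum was 14860 CPM. Ces2b (r = 0.06) and Ces1d (r = -0.13) showed little relation to the markers, and Ces1e had r = 0.81 (exact permutation, adjusted p = 0.142). Whether the correlation of Bche differs from that of Ces2e was not tested, and Bche may have been chosen in part for its small spread.

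**Figure D5:**
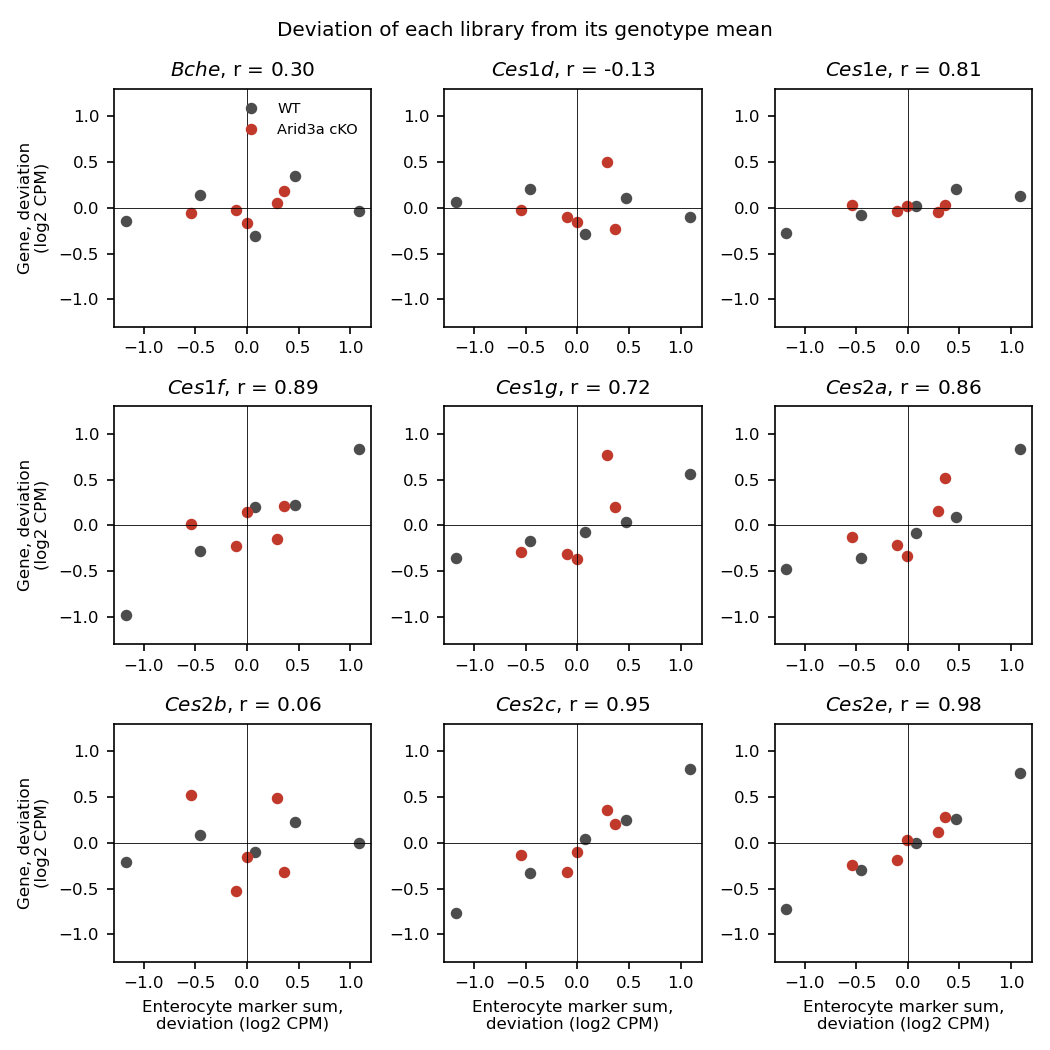
Deviation of each library from its genotype mean, in log2 CPM, for each of the 9 genes (vertical) against the summed enterocyte markers (horizontal), WT in grey and Arid3a cKO in red. Points for Ces2e lie along a line (r = 0.98), whereas those for Bche stay near the horizontal axis (r = 0.3).

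The genes whose within-genotype deviations were most like those of Bche, among 9209 genes with a mean of at least 10 CPM, were Ralgps2 (r = 0.97), Atf2 (0.96), Lrig2 (0.96), Ndel1 (0.95) and Smg6 (0.95), over 10 libraries that share their depth and handling. These 5 genes had log2 fold changes of 0.07 to 0.31 between genotypes, against 1.22 for Bche. Their r values are the highest of a search over 9209 genes, and how high r runs in such a search without any relation was not tested.

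The promoters of Ces2a, Ces2c and Ces2e, whose levels varied together, are shown for the 120 bases before the start site, from RefSeq on GRCm38.p6 and on the strand of the gene. RefSeq promoters were matched for 6 of the 9 members. Capitals mark a run of 7 bases that all 3 share, found after the sequences were seen and one of 3 such runs in their 250 bases upstream.
Ces2a, chr8:104733883-104734002 (+): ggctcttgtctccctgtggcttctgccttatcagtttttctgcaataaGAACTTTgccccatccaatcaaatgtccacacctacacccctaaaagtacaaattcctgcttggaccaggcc
Ces2c, chr8:104846948-104847067 (+): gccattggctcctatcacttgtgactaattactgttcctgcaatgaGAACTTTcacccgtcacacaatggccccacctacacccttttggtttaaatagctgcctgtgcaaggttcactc
Ces2e, chr8:104926140-104926259 (+): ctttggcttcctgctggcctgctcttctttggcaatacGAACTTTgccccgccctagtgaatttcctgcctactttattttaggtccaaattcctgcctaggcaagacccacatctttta
The run GAACTTT began 72, 74 and 82 bases before the start in Ces2a, Ces2c and Ces2e, and 3.34% of 27025 promoters of the same length hold it on either strand. CAAAGTTC, letters found in binding sites of the HNF4 nuclear receptors, was also searched after the sequences were seen. It overlaps this run on the opposite strand in Ces2a and Ces2e and occurs in 0.921% of promoters. The 3 genes are close relatives, with coding identity of 82.2% to 83.5%, so shares over all promoters are no fitting background. Pairs of them share longer runs, of 17 bases in Ces2a with Ces2e and 11 bases in Ces2a with Ces2c. Whether any run bears on their shared variation was not tested.

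Searched on both strands in the same 250 bases, CAAAGNNCA, the looser HNF4 form, was present in 1 of the 6 member promoters (Ces2e) against 5.47% of all promoters. TTTATG, a CDX-type core, was present in Bche, Ces1e and Ces1g against 11.1% of all promoters, and TATAAA in Ces1g against 13%. A match of letters is a description and no measure of binding.

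The remaining carboxylesterases were mostly rare in crypts. Of 12 listed, 6 passed the filter, 3 rose in the cKO and 0 fell, where 15.6% of all genes tested rose and 12.7% fell. Ces2g, the only abundant one, was at 111.5 ± 10.1 CPM in WT and 166 ± 12.3 CPM in the cKO (SD, n = 5 each). Its log2 fold change was 0.57 (SE 0.0769, edgeR adjusted p = 0.000799). Ces2h and Ces3a rose by 1.48 and 1.02 on the log2 scale (edgeR adjusted p = 0.0162 and 0.0107) at mean levels below 2 CPM. Ces2f had a log2 fold change of 1.13 (edgeR adjusted p = 0.0603), and Ces1b and Ces1c had -0.25 and -0.42 (edgeR adjusted p = 0.453 and 0.318). Ces1a, Ces1h, Ces4a and Ces5a had at most 3 counts in every library.

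Neighbours of the clusters showed no common direction. The Ces1 cluster spans 515617 bases and holds 0 other genes that passed the filter, and the Ces2 cluster spans 416107 bases and holds 2, of which 0 were called. Beside the Ces1 cluster, Lpcat2, at 100935 bases, was lower in the cKO (log2 fold change -1.65, edgeR adjusted p = 0.000778), and Gnao1 was not called (0.15, edgeR adjusted p = 0.533). Beside the Ces2 cluster, Gm5159 at 0.01 and Cbfb at -0.13 were not called (edgeR adjusted p = 0.978 and 0.309).

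Around butyrylcholinesterase, genes of acetylcholine handling and of its peptide substrate ghrelin were examined. Ache, which encodes acetylcholinesterase, was at 2.49 ± 0.344 CPM in WT and 1.77 ± 0.153 CPM in the cKO (SD, n = 5 each), with groups that did not overlap, a log2 fold change of -0.49 opposite in sign to that of Bche and an edgeR adjusted p of 0.0395. That call held under 8 of 21 alternative settings, while the log2 fold change ran from -0.62 to -0.29 over all of them. Ghrl, which encodes ghrelin, rose from 15.3 ± 2.6 to 24.4 ± 3.12 CPM (log2 fold change 0.68, edgeR adjusted p = 0.00289). Ghrelin is made by enteroendocrine cells, whose markers Chga, Chgb and Tph1 rose by 0.42, 0.43 and 0.56 on the log2 scale (edgeR adjusted p = 0.0486, 0.013 and 0.00388), and their part in the rise of Ghrl was not tested. Mboat4, the acyltransferase that octanoylates ghrelin, had a log2 fold change of 0.36 (edgeR adjusted p = 0.387). Chat, Chrm1 and Chrm3 were not called, with values from -0.2 to 0.39, and Prima1 and Colq, which anchor cholinesterases, had at most 3 counts in every library, as had the transporters Slc18a3 and Slc5a7.

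Of 18 other ester and lipid hydrolases listed, 15 passed the filter, 10 rose and 1 fell, where 15.6% of all genes tested rose and 12.7% fell. Their median log2 fold change was 0.32, against -0.03 over all genes. Lipa, the lysosomal acid lipase, rose from 14.9 ± 4.13 to 48 ± 7.79 CPM (log2 fold change 1.69, edgeR adjusted p = 0.000587). Lipe, hormone-sensitive lipase, rose by 1.16, Abhd6, a monoacylglycerol lipase, by 1.08, and Aadac, a microsomal esterase that shares drug substrates with carboxylesterases, by 0.7 (edgeR adjusted p = 0.00521, 0.00512 and 0.00152). Pnliprp2, a pancreatic lipase-related protein, fell by 0.74 on the log2 scale (edgeR adjusted p = 0.0062).

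Transcription factors and nuclear receptors known for control of esterase and enterocyte genes were examined last, and 7 of 11 rose and 0 fell, where 15.6% of all genes tested rose and 12.7% fell. Nr1i2, the pregnane X receptor, rose by 0.66 and Nr1i3, the constitutive androstane receptor, by 1.07 (edgeR adjusted p = 0.0061 and 0.00936). Hnf4g rose from 99.4 ± 17.2 to 206 ± 40.4 CPM (log2 fold change 1.05, edgeR adjusted p = 0.000926), whereas its paralog Hnf4a had a log2 fold change of -0.15 (edgeR adjusted p = 0.12). Rxra, the heterodimer partner of the pregnane X and constitutive androstane receptors, rose by 0.43, and Nr1h3, Nr1h4 and Ppara by 0.48 to 0.62. Nfe2l2, Cdx2 and Gata4 were not called, with values from -0.07 to 0.19. Without cKO replicate 5, 4 of the 11 were called.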

How the data were processed

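For each library the authors deposited RSEM expected counts, TPM and effective lengths for 54838 genes, made with nf-core/rnaseq (STAR and RSEM) against an Ensembl annotation of GRCm38, without filtering. RSEM divides reads that match several genes among them. TPM values of the authors were used as deposited. Replicates were not pooled.

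Rounded expected counts entered edgeR 4.0.16 under R 4.3.3 (filterByExpr with genotype, minimum count 10 and minimum total 15, TMM, robust glmQLFit and glmQLFTest, Benjamini-Hochberg over 14719 genes, threshold 0.05). The study's test was DESeq2 with a further term for time, which has 1 level here. limma 3.58.1 and DESeq2 1.42.0 were alternatives. Groups came from the sample labels. The fit was tested on simulated counts.

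Totals of 27050455 to 31053622 counts set the counting error, which is large near 1 CPM. Genes with at most 3 counts in every library were treated as at the floor. Reads carry no molecular identifiers, so floors cover counting error only. Of the gene identifiers, 115 had no symbol.

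The members and the gene lists were chosen with earlier results of these data known. All 9 members were named, with Arid3a, genes of the lists, the 5 genes most correlated with Bche and the nearest tested gene on each side of both clusters. Gene positions and transcripts are GENCODE (GRCm38) and promoters RefSeq (GRCm38.p6). Protein sequences were not used here. A few items of the lists are not reported here.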

Additional observations from a re-analysis of the deposited data

Results flagged for a closer look

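Ces1d in cKO replicate 4 stood apart from the other 4 cKO libraries at 52.4 CPM, its gap to the nearest being 0.76 of the range of the group against a Dixon critical value of 0.71. The other 4 cKO libraries were at 31.2 to 36.3 CPM. Of 24 groups of 5 tested in this way, 1 stood out, and chance gives about 1 in 20. The same library was also the highest for Ces1g and Ces2c.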

How the results depend on the processing

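The log2 fold changes of the 9 members kept their direction under all 21 alternatives, and their median ran from 1.03 to 1.38. Of the members, 8 were past the threshold in 19 alternatives and 7 in 2, Ces1f being lost without a filter on low counts and Ces1g with the replicate block (log2 fold change 1.04). The replicate numbers gave no sign of pairing. Correlations of same-numbered libraries ran from -0.158 to 0.131, and 0 WT libraries correlated best with their own number. So few correlations cannot show that the animals were unpaired. The block lowered the genes called from 4167 to 3052. Over all alternatives 3007 to 5571 genes were called, and 3007 (without WT replicate 4) to 4684 (without WT replicate 2) with 1 library left out.

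Of the cholinergic and ghrelin genes, 1 was called in place of 2 under TPM with a pseudocount of 0.1, an effective length offset, no filter and the replicate block, and 1 to 2 with a library left out. With a library left out, 4 to 8 of the regulators were called, 1 to 9 pairs of members passed, and 7 to 9 of the 9 genes kept their place in the WT order. With the 2 farthest libraries left out 0 pairs passed, with fewer reorderings to draw on. Before the TMM factors, 1 CPM stands for about 27 to 31 counts, so Ces2f, Ces2h and Ces3a are limited by depth.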
